A study of Rattus norvegicus with 6 samples.

Results

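The granins are the soluble cargo proteins of the dense-core secretory granule, and their mRNAs were examined here in INS-1 cells, an insulin-secreting line derived from a rat insulinoma and widely used in place of primary beta cells. The family was taken as the 7 genes Chga, Chgb, Scg2, Scg3, Scg5, Vgf and Pcsk1n, found by symbol in a table of 35362 gene entries. Of these, 6 were above 0 in at least 1 library and 6 passed the filter on low values, alongside 12527 genes tested in all. Messenger RNA was sequenced from 2 groups of 3 libraries. Both groups carried a Flag-tagged menin mutant introduced with a retrovirus made from the pMX-puro vector and were at passage 75 to 80. In the S487A group the serine that the name gives was replaced by alanine, which cannot be phosphorylated. In the S487D group it was replaced by aspartate, an acidic residue often used to imitate a phosphorylated serine. The labels do not say whether the cells' own Men1 was removed, whether each population was 1 clone, or whether separate cultures gave the libraries of each group. The p-values therefore weigh group differences against the spread between libraries of a group, which may be technical. They do not cover differences between separately made populations of the same mutant. The study's title places the comparison in GLP-1 signalling to menin, and the question asked here is how granin mRNA differs between cells with the 2 mutants.

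Granins are acidic proteins that aggregate in the trans-Golgi network as calcium rises and pH falls, and this aggregation helps to sort peptide hormones into granules. Most are also precursors that are cut into smaller peptides. In beta cells they are stored and released with insulin. Scg5 (7B2) and Pcsk1n (proSAAS) bind the prohormone convertases encoded by Pcsk2 and Pcsk1, the proteases that cut proinsulin and proglucagon. Several granin promoters are known to hold a cAMP response element (CRE), the site of CREB family factors.

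Promoter windows of 300 bases, from 250 before to 50 after the gene start, were listed by RefSeq on the GRCr8 build for 6 of the 7 genes, Chga being the other. They are shown for the 2 members with a complete CRE and for the 2 members with the largest falls in mRNA. Capitals mark the CRE TGACGTCA, which reads the same on both strands, its core TGACG or the reverse complement CGTCA, and, on the given strand, the TATA box TATAAA.
Scg2 (chr9:88256817-88257116, minus strand): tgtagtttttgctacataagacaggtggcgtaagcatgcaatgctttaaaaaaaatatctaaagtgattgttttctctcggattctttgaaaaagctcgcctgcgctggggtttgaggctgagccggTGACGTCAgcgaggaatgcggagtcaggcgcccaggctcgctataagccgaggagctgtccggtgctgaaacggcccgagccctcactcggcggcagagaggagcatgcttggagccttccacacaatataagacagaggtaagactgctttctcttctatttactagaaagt
Vgf (chr12:25276971-25277270, minus strand): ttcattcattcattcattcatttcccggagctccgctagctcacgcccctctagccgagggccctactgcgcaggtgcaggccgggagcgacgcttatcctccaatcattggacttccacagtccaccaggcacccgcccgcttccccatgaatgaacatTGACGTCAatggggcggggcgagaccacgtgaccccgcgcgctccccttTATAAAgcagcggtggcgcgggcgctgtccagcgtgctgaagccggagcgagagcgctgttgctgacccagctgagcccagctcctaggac
Chgb (chr3:140496462-140496761, plus strand): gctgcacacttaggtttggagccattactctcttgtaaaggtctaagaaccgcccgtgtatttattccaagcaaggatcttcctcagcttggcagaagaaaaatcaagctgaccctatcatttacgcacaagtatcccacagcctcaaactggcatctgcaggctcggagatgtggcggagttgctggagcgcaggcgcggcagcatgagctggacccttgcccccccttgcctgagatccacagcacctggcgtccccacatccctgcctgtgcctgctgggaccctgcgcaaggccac
Scg5 (chr3:121042746-121043045, minus strand): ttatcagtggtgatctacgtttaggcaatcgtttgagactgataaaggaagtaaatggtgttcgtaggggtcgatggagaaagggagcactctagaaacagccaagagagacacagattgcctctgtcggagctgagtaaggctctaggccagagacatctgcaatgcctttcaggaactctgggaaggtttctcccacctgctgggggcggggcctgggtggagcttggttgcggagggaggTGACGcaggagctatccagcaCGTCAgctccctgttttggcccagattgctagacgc
A complete CRE stood in the windows of Scg2 and Vgf and in 1.83% of all 33469 promoter windows. It began at base 128 of the Scg2 window and at base 161 of the Vgf window, counted from 1 at the 5′ end. The core alone, which every complete CRE also contains, was found in 4 members (Scg2, Vgf, Scg3 and Scg5) and in 21.2% of all windows. The Scg5 window held it at bases 244 and 265, in opposite orientations, and the Scg3 window at base 182. The windows of Chgb and Pcsk1n had no match to these letters. These are matches of letters only, and no binding was measured.

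The libraries held 9444801 to 10867549 reads assigned to genes, worked out from RPKM (reads scaled to gene length and to the library's assigned reads) and gene length. Men1, whose reads can come from the transgene or the rat gene, read 71.2, 76.7 and 75.0 RPKM in the S487A libraries, and 113, 103 and 119 in those of S487D (limma adjusted p = 2.89e-05). Men1 level and mutant thus differed together, and their parts in the results cannot be told apart. All 11 beta cell markers were among the genes tested. Of 17 listed markers of other cells found in the table, 8 were listed at 0 in every library, among them the leukocyte gene Ptprc, the endothelial gene Cdh5 and the acinar gene Prss1. Some genes that most cells use, such as Hprt1, were also listed at 0, so a listed 0 is not taken as a measured absence. The summed level of these 17 was 9.25 to 9.87 RPKM in S487A and 1.99 to 2.62 in S487D, most of it in S487A from Th (tyrosine hydroxylase), at 7.16 ± 0.28 and 0.449 ± 0.134 RPKM (mean ± SD, n = 3 per group). No other of these markers reached 1 RPKM. Ribosomal RNA took 0.930 to 2.49% of reads in S487A and 2.15 to 4.50% in S487D, and its part in the results was not tested.

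Chgb, Scg5, Scg3 and, by a small amount, Chga were lower in S487D cells, and Scg2 was slightly higher. Of the 6 members tested, 4 fell and 1 rose (limma on log2(RPKM + 1), Benjamini-Hochberg adjusted p under 0.05 over all genes tested). Changes were common across the transcriptome: 24.3% of all genes tested fell and 20.1% rose, 44.4% together. Upward calls made up 45.3% of all calls, 55.4% after quantile normalization and 58.9% after median centring. The members' median log2 change was -0.23, against -0.01 over all genes tested. In 5 of the 6 the groups did not overlap (4 lower and 1 higher in S487D), as in 54.6% of all genes tested (29.5% lower and 25% higher). Fewer cells with granin mRNA and less granin mRNA per cell cannot be told apart in these bulk libraries. A log2 change is S487D minus S487A throughout. The series has no group without a mutant, so a fall or rise is a difference between the mutants and not from a normal level. With 3 libraries against 3, no exact two-sided permutation test of 1 gene can reach a p below 0.1.

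**Figure D1:**
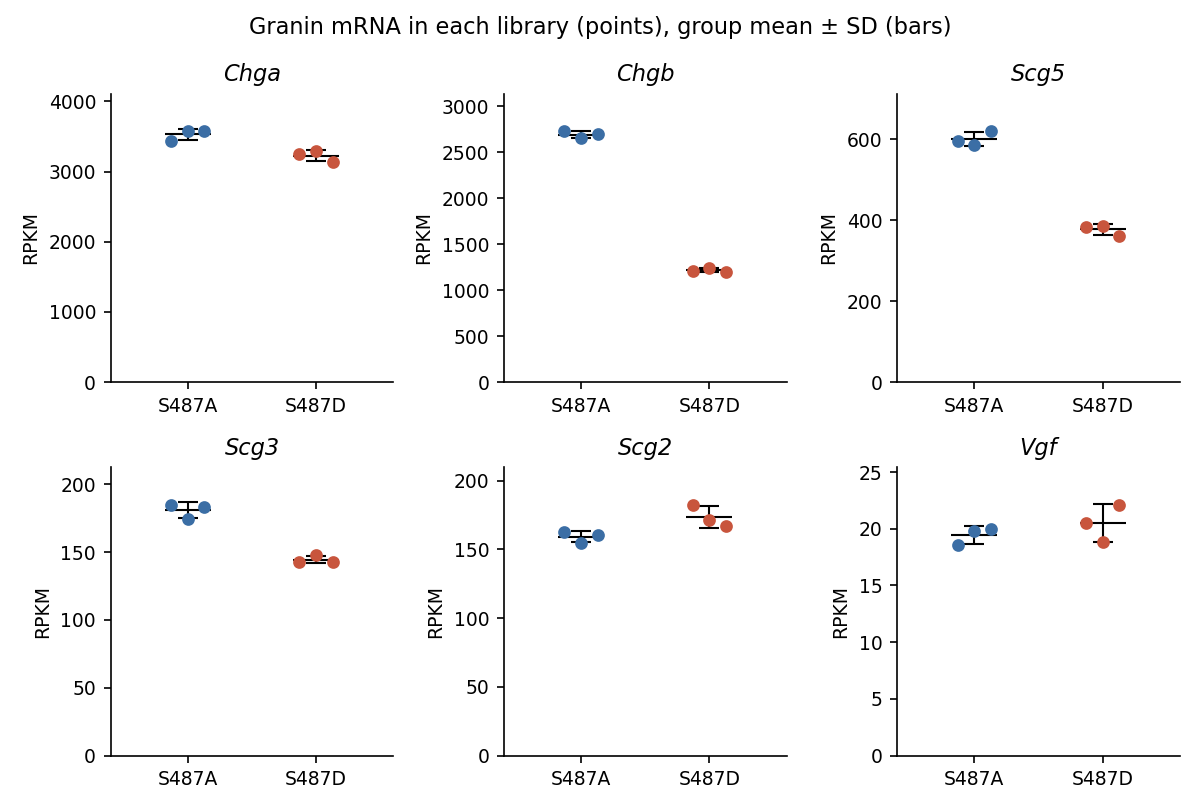
RPKM of the 6 measured granin genes in each library (points, S487A blue, S487D red), with the group mean and SD as bars and each axis starting at 0. Chgb lies between 2655 and 2729 RPKM in S487A and between 1201 and 1241 in S487D, while the groups overlap for Vgf.

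Chgb, chromogranin B, one of the main proteins of the beta cell granule core, changed most. The gene is on the plus strand of chromosome 3 from 125428260 to 125441601 (rn6, as for all positions of table entries below). Levels were 2729, 2655 and 2694 RPKM with S487A, against 1209, 1241 and 1201 with S487D. Every S487D library was thus below every S487A library, with a gap of 1414 RPKM between the groups and an SD of 37.4 in S487A and 21.1 in S487D. The log2 change was -1.15 (SE 0.039, limma adjusted p = 3.8e-08), a 2.21-fold lower level. Only 1.33% of genes tested had a lower log2 change. Among all entries ranked by mean RPKM, Chgb went from rank 5 in S487A to rank 20 in S487D. Of the 29 genes at 1000 RPKM or more in S487A, 2 fell by at least as much, Chgb itself and the calcium-binding gene S100a4, which was named after its values were seen.

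Chga, chromogranin A, the precursor of pancreastatin, vasostatin and catestatin, was the most abundant granin mRNA in both groups. Its entry spans 126434226 to 126445569 on the plus strand of chromosome 6. Levels were 3436, 3572 and 3575 RPKM with S487A, against 3248, 3289 and 3133 with S487D, so the groups did not overlap but lay only 147 RPKM apart. The log2 change was -0.13 (SE 0.043, limma adjusted p = 0.0353, 95% interval -0.23 to -0.03). The sign was negative in all 16 alternatives, but the call was lost in 10 of them. It was lost without S487A replicate 2 (adjusted p = 0.118) and without S487D replicate 1 (0.0997), 2 (0.0838) or 3 (0.131). It was also lost without a filter on low values (0.297), with a replicate block (0.185), after median centring (log2 change -0.07, adjusted p = 0.257) or quantile normalization (0.0837), with the 10 most read genes out of the total (0.0605) and without an intensity trend (0.0621). Over all alternatives the adjusted p ran from 8.24e-04 to 0.297.

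The 2 chromogranins therefore stood in a different proportion in the 2 groups. Within libraries, the RPKM of Chga was 1.26, 1.35 and 1.33 times that of Chgb in S487A and 2.69, 2.65 and 2.61 times in S487D. The mean log2 ratio of Chgb to Chga differed between the groups by -1.02 (exact two-sided permutation p = 0.1, the smallest possible; 0.1 after Benjamini-Hochberg adjustment over the 3 ratios compared). Within libraries the log2 ratio of Chgb to Scg5 differed by -0.48, and that of Scg5 to Scg3 by -0.35, each with the same exact permutation p = 0.1 and no overlap of the groups. These ratios were chosen after the values were seen. Their p-values, and the adjustment over the 3 chosen, therefore add no support to the difference in proportion.

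Scg5 encodes 7B2, the chaperone that the precursor of the Pcsk2 convertase needs to mature, and whose cleaved tail inhibits that convertase. The gene is on the minus strand of chromosome 3 from 105235066 to 105279475, 20.1 Mb from Chgb. Its level was 595, 584 and 620 RPKM with S487A, against 383, 386 and 362 with S487D, with no overlap and a gap of 198 RPKM. Scg5 fell 1.59-fold (log2 change -0.67, SE 0.042, limma adjusted p = 2.11e-06). Pcsk2 itself moved the other way, from 164, 167 and 162 RPKM to 326, 318 and 331. The RPKM of Pcsk2 was 0.261 to 0.286 times that of Scg5 in S487A and 0.824 to 0.915 times in S487D, as a description with no test. The Pcsk2 entry overlaps another transcript over 0.429% of its span, and the libraries do not mark strand.

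Scg3, secretogranin III, binds chromogranin A and the cholesterol-rich granule membrane and so helps to retain the aggregate. Its entry spans 82582352 to 82641536 on the minus strand of chromosome 8. The 3 S487A values were 185, 174 and 183 RPKM, and those of S487D 143, 148 and 143, again without overlap. Scg3 fell 1.25-fold (log2 change -0.32, SE 0.039, limma adjusted p = 1.44e-04). The falls of Chgb, Scg5 and Scg3 were called in all 16 alternatives.

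Scg2, secretogranin II, the precursor of secretoneurin, was the member that rose, by a small amount. Its entry spans 85237460 to 85243033 on the minus strand of chromosome 9, and its promoter window holds a complete CRE. The 3 S487A values were 162, 155 and 161 RPKM, and those of S487D 183, 171 and 167, and the groups lay 4.72 RPKM apart. The log2 change was 0.12 (SE 0.043, limma adjusted p = 0.0427, 95% interval 0.03 to 0.22). The sign was positive in all 16 alternatives, but the call was lost in 9. These were without S487A replicate 1 (adjusted p = 0.0511), 2 (0.131) or 3 (0.0673), without S487D replicate 1 (0.169) or 2 (0.0763), without a filter on low values (0.0829), with a replicate block (0.0634), after quantile normalization (log2 change 0.06, adjusted p = 0.26) and without an intensity trend (0.1). Over all alternatives the adjusted p ran from 0.00319 to 0.26. The order of Scg3 and Scg2 differed between the groups: in S487A all 3 libraries had more Scg3 than Scg2 per length, and in S487D all 3 had less.

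Vgf, a nerve growth factor-inducible granin whose peptides act on energy balance and insulin release, passed no test. The entry on chromosome 12, from 22677302 to 22680630 on the minus strand, had 574 to 688 reads per library. The 3 S487A values were 18.5, 19.8 and 19.98 RPKM, and those of S487D 20.5, 18.9 and 22.1, so the groups overlapped. The log2 change was 0.07 (95% interval -0.07 to 0.21, limma adjusted p = 0.395), and the interval leaves room for a change of either sign. Its promoter window also holds a complete CRE. A transcript of unknown function, LOC102551204, ends 127 bases from the Vgf entry on the same strand and had a log2 change of -0.86 (limma adjusted p = 0.00173).

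Pcsk1n, which encodes the convertase inhibitor proSAAS, was listed at 0 in all 6 libraries. The entry on chromosome X runs from 15425076 to 15428518 on the minus strand, with a listed length of 941 bases. Nearby genes that most cells use were also listed at 0 in all 6, the deacetylase gene Hdac6 and the mitochondrial import gene Timm17b, as was the purine salvage gene Hprt1 farther along chromosome X. Not all nearby entries were at 0. Of 14 entries in the stretch that includes Pcsk1n, 6 were at 0 in every library. Pqbp1, beside Timm17b, had a mean of 57.3 RPKM in S487A and 56.7 in S487D. A second entry, LOC103689963, lies 100813 bases before Hdac6, has the same length (4151 bases) and the same span on the chromosome, and was at 0 as well. Moving Pcsk1n by this distance places it at 15324263 to 15327705, inside the entry LOC103690091 (15324261 to 15328617, same strand). That entry had 24.5, 22.9 and 22.8 RPKM with S487A, against 20.8, 22.6 and 20.1 with S487D, values that did not overlap but lay close, with a log2 change of -0.14 (limma adjusted p = 0.0735). Whether its reads come from Pcsk1n transcripts was not tested. The value of 0 for Pcsk1n is therefore given as listed and not as a measured absence.

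Per length, the order of the members was Chga, Chgb, Scg5, Scg3, Scg2 and Vgf in S487A, and the same in S487D apart from the exchange of Scg3 and Scg2. The ranges of neighbours in this order did not overlap in either group. Chga ranked 3 and 4 among all entries by mean RPKM in S487A and S487D, Scg5 69 and 159, Scg3 370 and 530, Scg2 439 and 409, and Vgf 4429 and 4161. All granins together took 1.51, 1.51 and 1.53% of assigned reads in S487A and 1.05, 1.07 and 1.02% in S487D. Summed RPKM was 7180 ± 65.1 in S487A and 5156 ± 116 in S487D (SD, n = 3 each). Chga made up 49.1 ± 0.85% of that sum in S487A and 62.5 ± 0.17% in S487D, and Chgb 37.5 ± 0.68% and 23.6 ± 0.29%. Ins1 mRNA went the other way: its RPKM was 0.627 to 0.692 times the granin sum in S487A and 3.09 to 3.34 times in S487D.

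**Figure D2:**
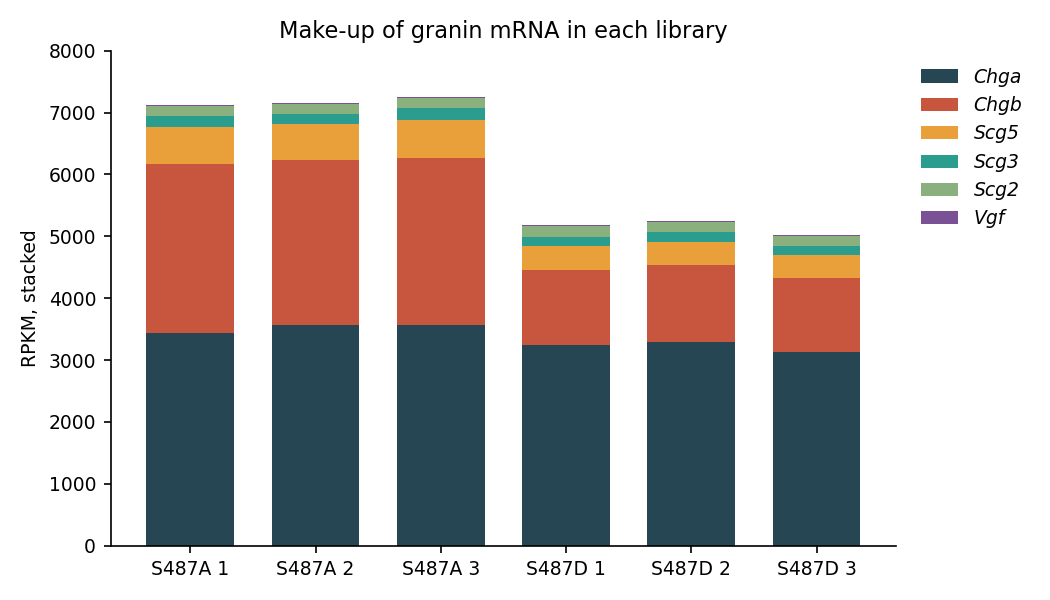
RPKM of the 6 measured granin genes stacked for each library; bar height is the summed RPKM. The S487A bars reach 7127 to 7252 and the S487D bars 5028 to 5254, and the Chgb segment shrinks most.

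**Figure D3:**
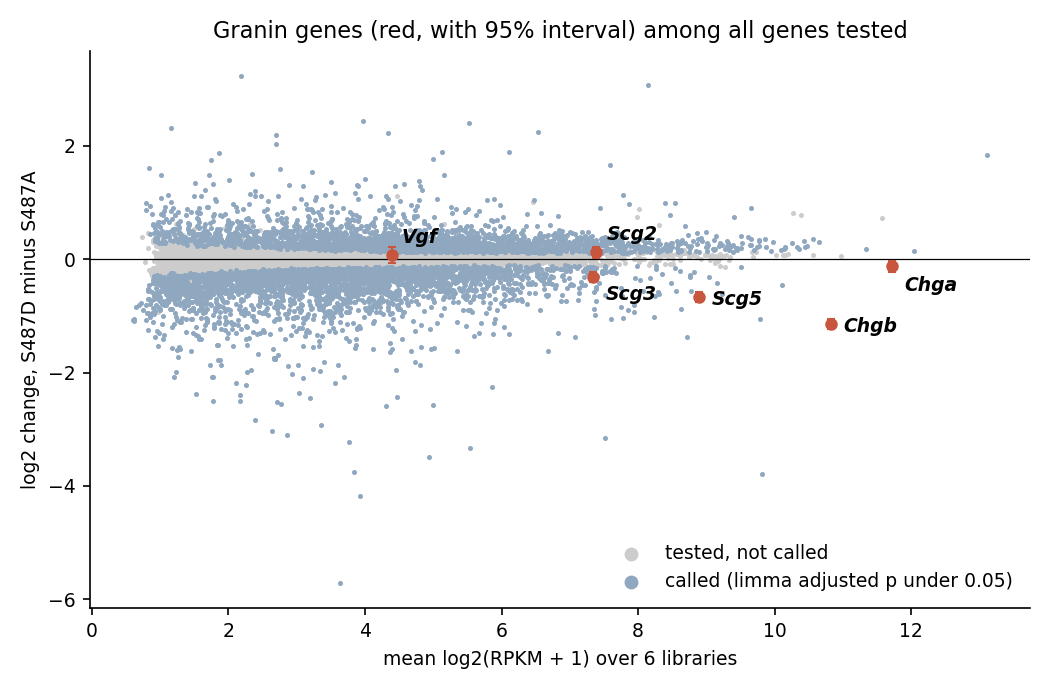
Log2 change (S487D minus S487A) against mean log2(RPKM + 1) over the 6 libraries for all 12527 genes tested (grey not called, blue called), with granins in red and their 95% intervals. Chgb at -1.15 stands apart from Chga at -0.13, although both are among the most abundant mRNAs.

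The genes around each member showed how far the chromosomal surroundings moved with it, taking the 10 tested genes on each side. Over all genes tested 20.1% rose and 24.3% fell, and the counts below are to be read beside these shares. Around Chgb the median log2 change was -0.01, with 3 of 20 rising and 2 falling, and no log2 change among the 20 was below that of Chgb. The lowest was -1.03, that of the prion protein gene Prnp, 897 kb from Chgb. The nearest tested neighbours of Chgb, Gpcpd1 and Trmt6, had log2 changes of -0.11 (limma adjusted p = 0.368) and 0.26 (0.0242). Around Scg5 the median was -0.05, with 1 rising and 4 falling, and the lowest log2 change among the 20 was -0.34, against -0.67 for Scg5. Around Scg3 the median was -0.12, 9 of 20 fell and 0 rose, and 6 had a lower log2 change than Scg3. Around Chga the median was -0.12, close to the -0.13 of Chga itself, with 3 rising and 7 falling. Around Scg2 the median was -0.06 (5 rising, 4 falling) and around Vgf -0.10 (2 rising, 8 falling). No member entry overlapped another entry in the table.

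**Figure D4:**
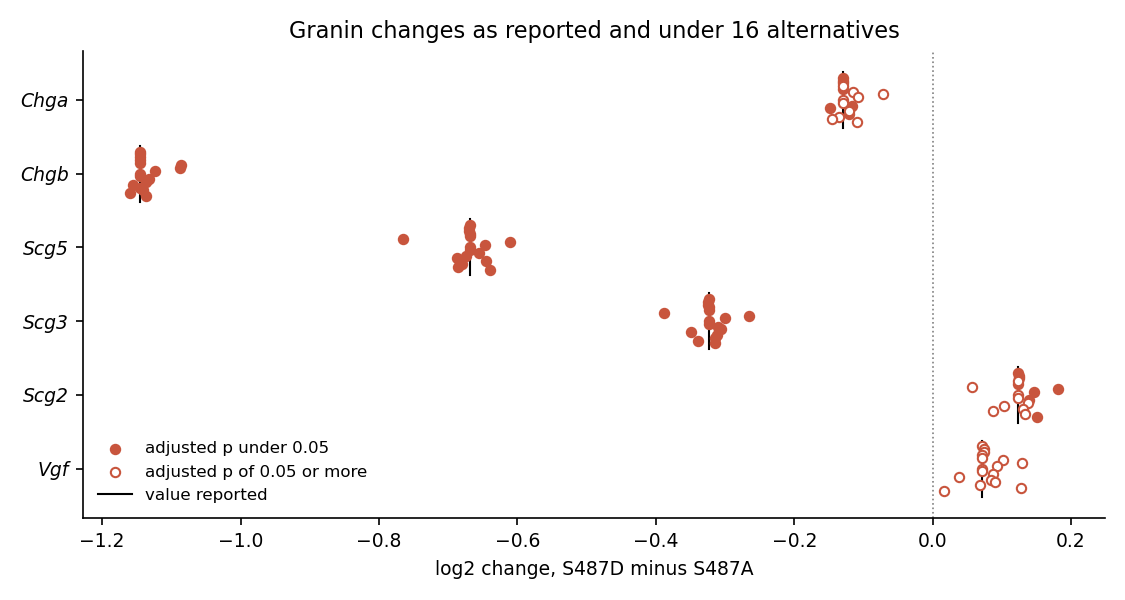
Log2 change of each granin gene as reported (black line) and in every fit (points): filled points have a limma adjusted p under 0.05, open points do not. The points of Chgb, Scg5 and Scg3 are all filled, and those of Vgf are all open.

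Among 12 convertases and other processing enzymes tested there were 4 rises, 3 falls and 5 genes that passed no test, around a median log2 change of 0.01. Not all of these act in the granule, and the falls were those of Cpd, Ctsl and Pcsk5. The fall of Cpd was close to the threshold (limma adjusted p = 0.0447). Over all genes tested 20.1% rose and 24.3% fell, which is the background for the counts of this list and the lists that follow. Pcsk2 rose 1.97-fold (log2 change 0.98, SE 0.036, limma adjusted p = 6.52e-08). Pam, which amidates peptide ends, rose from 56.1 ± 2.2 to 81.1 ± 1.5 RPKM. Pcsk1, the other convertase of proinsulin, was low and rose from 5.76 ± 0.06 to 7.24 ± 0.45 RPKM (log2 change 0.29, limma adjusted p = 0.00582), in an entry that overlaps another transcript. The lysosomal protease gene Ctsl fell from 67.2 ± 3.0 to 58.7 ± 1.3 RPKM. Pcsk5 fell from 2.95 ± 0.21 to 2.19 ± 0.19, a call lost without S487A replicate 3 (adjusted p = 0.0552), without S487D replicate 1 (0.0567) and after quantile normalization (0.0869). Cpe, the carboxypeptidase that trims the cut peptides, was at 648 ± 14 and 644 ± 14 RPKM (log2 change -0.01, 95% interval -0.09 to 0.08, limma adjusted p = 0.869). Its sign turned positive after median centring and in 4 other alternatives, and it was called lower after quantile normalization (log2 change -0.16, adjusted p = 0.00458).

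Genes of the granule membrane and of granule formation gave 5 rises and 5 falls among 22 tested and the other 12 were not called, a share close to the 44.4% called over all genes tested. The list's median log2 change was -0.00, and Cpe, described above, is also on this list. The count of falls dropped to 3 after median centring, without an intensity trend, with a replicate block and without S487A replicate 3 or S487D replicate 2. Slc30a8, the zinc transporter of insulin granules, and Sytl4, which docks granules, rose 5.28-fold and 3.72-fold. Rab27a, the GTPase that Sytl4 binds on granules, fell from 11.1 ± 0.93 to 6.97 ± 0.09 RPKM. Pick1, a membrane-curving protein of granule budding, fell from 104 ± 2.9 to 75.8 ± 1.3.

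Other peptide cargo of neuroendocrine granules included some of the changes of greatest size. Among the 13 tested there were 9 rises and 2 falls, around a median log2 change of 0.50 (20.1% rose and 24.3% fell over all genes tested), and 6 of the 21 listed were at 0 in every library, among them Sst and Ppy. The list also holds Uchl1 (log2 change 0.18) and Dbi (0.28), which encode mainly cytosolic proteins, and both are among the rises. Ins1 rose from 4541, 4489 and 5019 RPKM to 17297, 16211 and 16591 (log2 change 1.84, limma adjusted p = 2.41e-08). After quantile normalization its log2 change was 0, because it was the most abundant entry of each library. Nts, neurotensin, rose from 0.481 ± 0.107 to 12.9 ± 0.31 RPKM, and Gcg, proglucagon, rose 8.45-fold. Every S487A library had Nts below 1 RPKM, so this gene passed the filter on low values only through S487D. Its place among the 9 rises was therefore favoured by the filter and adds no support. Gast, gastrin, fell 11.2-fold on the log2(RPKM + 1) scale, and Nucb2, the precursor of nesfatin, fell from 288 ± 6.7 to 160 ± 2.9 RPKM. Ins1 and Ins2 are near-identical copies, so reads could be split unevenly between them. Of the beta cell markers, 6 of 11 rose and 4 fell, beside 20.1% and 24.3% of all genes tested, with Ins2 and Mafa, an activator of insulin transcription, up 3.15-fold and 3.70-fold. Ins1, Ins2 and Iapp are on both lists and are counted among the rises of each. Nkx6-1, a beta cell homeobox factor, fell 2.05-fold and Abcc8, a potassium channel subunit, 1.34-fold.

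**Figure D5:**
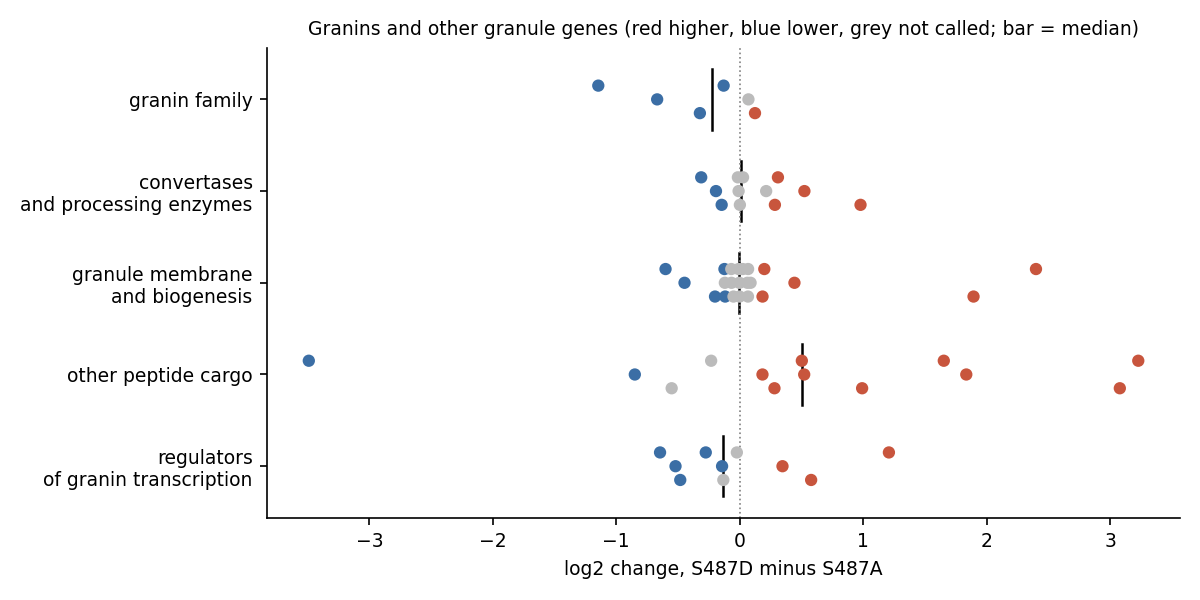
Log2 change of each tested gene in the granin family and 4 other lists (red higher, blue lower, grey not called; black bar is the list's median). Most measured granins lie left of 0, whereas the list of other peptide cargo spreads from -3.49 to 3.23 with its median at 0.50.

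Of the transcription factors listed as regulators of granin genes, 10 were tested: 3 were called higher, 5 lower and 2 neither, around a median log2 change of -0.14, where 20.1% of all genes tested were called higher and 24.3% lower. Crem, a cAMP-inducible regulator that binds the CRE, rose from 2.45 ± 0.17 to 6.98 ± 0.30 RPKM and the islet factor gene Nkx2-2 from 13.3 ± 0.47 to 20.5 ± 2.9. Atf1, another CRE-binding factor, fell from 59.5 ± 2.4 to 37.6 ± 0.55 RPKM and Sp1, a factor of GC-rich promoters, from 22.8 ± 1.4 to 15.6 ± 0.19. Creb1 was at 2.67 ± 0.27 and 2.61 ± 0.13 RPKM (log2 change -0.02, 95% interval -0.21 to 0.17, limma adjusted p = 0.847), and its sign was positive after median centring and after quantile normalization. Rest, the repressor that silences neuroendocrine genes in other cell types, reached at most 0.0886 RPKM and was not tested.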

How the data were processed

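Messenger RNA of 6 INS-1 libraries, 3 with S487A and 3 with S487D menin, was analysed from the table of RPKM values that the authors deposited, with rn6 position, strand and length per gene, per the file headers. Per the labels' protocols the libraries were made with the TruSeq RNA kit, a protocol without strand marking. TopHat2 2.0.13, cutadapt and bcl2fastq 2.17 are named per the submitters' processing notes; which read counter and annotation were used is not given in the sources used here. RPKM times length fell within 0.05 of a whole read for 100% of values up to 2000 reads, so reads per gene could be worked out. Groups and replicate numbers came from sample titles. Within groups, pairs of libraries were farther apart than counting alone gives (median chi-square per gene 1.36 to 1.88 times expectation), and each library was kept. The test was limma 3.58.1 (R 4.3.3), two-sided, on log2(RPKM + 1), with an intensity trend and only the group in the model. It took the genes that reached 1 RPKM in 3 or more libraries, and p-values were adjusted over all of them (Benjamini-Hochberg, threshold 0.05). Folds are on this scale and understate changes of low genes. The test was also run on simulated reads with far fewer changed genes than were called here. That run held no changes as small as those of Chga and Scg2.

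The members and gene lists were chosen with earlier results of these data known. All members are named, with Ins1, Men1, Pcsk1 and Pcsk2, up to 4 called genes of each list (the 2 smallest p in each direction) and the 5 genes of mean RPKM at least 100 closest to Chgb in Euclidean distance over the 6 libraries; other names were chosen after their values were seen. Alternatives were pseudocounts of 0.1 and 0.01, filtering at RPKM 5 or not at all, median centring, quantile normalization, the 10 most read genes out of the total, no intensity trend, a replicate block, voom with TMM scaling on recovered reads, and each library left out. Python 3.11.15 with pandas 2.3.3 and scipy 1.17.1 was used for tables, figures and exact permutation tests. Promoters came from RefSeq (GRCr8) and were matched by symbol.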

Additional observations from a re-analysis of the deposited data

How the results depend on the processing

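The count of granin genes that fell was 3 or 4 in every alternative. The count that rose, which rests on Scg2 alone, was 0 without a filter on low values, after quantile normalization, without an intensity trend and with the replicate block, and 0 or 1 with a library left out; at an unadjusted limma p under 0.05 it was also 0 after quantile normalization, without an intensity trend and without S487A replicate 2 or S487D replicate 1, and 1 in the other fits. The difference in the granin share of reads, -0.467 percentage points, stayed between -0.477 and -0.455. Over all genes tested, counts of calls stayed within 1.5 times of the 5564 reported. The replicate block left 5335 calls in all and 3 falling granins (Chgb, Scg5 and Scg3); deviations of same-numbered libraries had correlations of -0.060 to 0.010, so the numbers were not taken as pairs. Cpe turned to log2 changes of 0.0488 (median centring), 0.0136 (10 most read genes out of the total), 0.00580 (voom), 0.00725 (without S487A replicate 1) and 0.00613 (without S487D replicate 2), its lowest value with a library left out being -0.0253. Creb1 turned to 0.0951 (quantile normalization), 0.0347 (median centring), 0.0363 (without S487A replicate 1) and 0.000739 (without S487D replicate 2), its lowest with a library left out being -0.0560; the cause was not tested. Convertases and other processing enzymes that fell numbered 3 in the fit reported. The count stayed at 3 with either alternative pseudocount, after quantile normalization and with voom. It was 1 without S487A replicate 3 and 2 in every other alternative. Each granin called had at least 2891 reads in every library; the part of depth in the results was not tested.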

Other observations

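The 5 genes whose values across the 6 libraries lay closest to those of Chgb, among 802 other genes of mean RPKM at least 100, were Bcam, Krt8, Cacnb3, Prnp and Slc9a3r1, at Euclidean distances of 0.186 to 0.285 in log2(RPKM + 1) relative to the S487A mean. Because closeness was taken over both groups, falls near that of Chgb follow from the choice of these genes. Krt8, a keratin of simple epithelia, had 1212, 1280 and 1310 RPKM with S487A, against 618, 607 and 610 with S487D. Prnp, the prion protein gene, ends 897 kb before Chgb on chromosome 3, is 1 of its 20 neighbours described above, and fell from 428 ± 13 to 209 ± 3.0 RPKM (n = 3 each). Krt8 and Cacnb3, a calcium channel subunit gene, lie on chromosome 7 at 143.6 and 140.3 Mb, in a stretch taken from earlier results of these data, where 122 of 159 genes tested fell and the median log2 change was -0.48. Bcam, an adhesion molecule gene on chromosome 1, fell from 281 ± 8.9 to 134 ± 2.8 RPKM and Slc9a3r1, a scaffold of membrane transporters, from 176 ± 5.6 to 71.0 ± 2.2, in an entry that overlaps another transcript over 8.02% of its span.

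Entries of the table that share chromosome, length and span with another entry, as Hdac6 and LOC103689963 do beside Pcsk1n, numbered 2653, and 2206 of them (83.2%) were at 0 in every library, against 30.5% of the other 32709 entries. Pcsk1n and LOC103690091 differ in length and are not counted among the 2653.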
